A study of Mus musculus with 4 samples.

Results

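The 10 genes described here are well known transcriptional targets of the tumour suppressor p53, namely Cdkn1a, Mdm2, Ccng1, Bbc3, Bax, Sesn2, Zmat3, Phlda3, Trp53inp1 and Gdf15. They were taken by gene symbol from a table of 22667 mouse genes, and all 10 were found in it. All 10 were among the 12497 genes that had at least 75 reads summed over the libraries and were compared. The cells were N2a, a neuroblastoma line from the mouse. Transfection lasted 48 h and used either a control siRNA without a target (siControl) or siRNA to Arglu1 (siArglu1), a coactivator of the glucocorticoid receptor and a splicing regulator. Ethanol vehicle (Veh) or 100 nM of the synthetic glucocorticoid dexamethasone (Dex) followed, both for 4 h. Each of the 4 groups, siControl and siArglu1 with Veh or with Dex, is 1 library made from the pooled mRNA of 3 cultures, and none has a replicate. Intervals below are exact 95% intervals of read counts unless stated otherwise. They cover counting error only, and differences between cultures cannot be seen in these data.

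In unstressed cells p53 protein is kept low by the ubiquitin ligase Mdm2 together with its relative Mdm4, and DNA damage or other stress releases it. p53 then activates genes that stop the cell cycle, start apoptosis, or limit growth and oxidative stress, and it activates Mdm2 itself, which closes a negative feedback loop. Many of these genes also answer to other factors. Sesn2 and Gdf15, for example, are induced by Atf4 in the integrated stress response, and Cdkn1a can be induced by glucocorticoids. The readouts here are mRNA and splicing only, so neither p53 protein nor its activity was measured.

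The libraries held between 66074574 and 86541444 reads on genes. Arglu1 itself was at 26.4% (25.2 to 27.5) of siControl in siArglu1 Veh and at 22.5% (21.7 to 23.4) in siArglu1 Dex. Of the 11 neuroblast markers checked, all were compared, with Tubb3 between 564 and 785 cRPKM and Stmn2 between 223 and 340 cRPKM. Others were low, with Th between 1.05 and 4.71, Gata3 between 2.55 and 7.84 and Dbh between 3.20 and 14.2 cRPKM. The unit cRPKM is the authors' RPKM in which unmappable positions do not count toward transcript length. The 11 markers of fibroblasts, immune cells and endothelium summed to 2.46, 2.22, 1.94 and 1.95 cRPKM in siControl (Veh then Dex) and siArglu1 (Veh then Dex), and Ptprc and Col3a1 had at most 1 read in any library. The log2 ratios moved with the length of the transcript. Across the 12497 genes, Spearman's rho with mappable length was -0.40 for knockdown in vehicle, -0.23 for knockdown in Dex, -0.16 for Dex in siControl and 0.54 for Dex in siArglu1, and genes are not independent replicates. Ratios after removal of this trend by lowess are given beside some of the values, and the part of transcript length in any result was not tested.

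p53 binds DNA as a tetramer, at pairs of a short element known as the p53 consensus decamer. The decamer, which reads the same in degenerate form on both strands, was searched in the RefSeq promoters of GRCm38.p6, each a window of 300 bases with 250 before the start of transcription. The 10 genes had 12 windows, which belonged to 8 of them, and 4 of the 12 windows (33.3%), each of another gene, held at least 1 exact decamer. Of all 32851 promoter windows, 8.36% held 1. The genes were chosen as known p53 targets, so the share of their windows with a decamer is not an independent result. The stretches around these matches are shown because the decamer is the element that p53 binds. Capitals mark the exact decamers.

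Cdkn1a: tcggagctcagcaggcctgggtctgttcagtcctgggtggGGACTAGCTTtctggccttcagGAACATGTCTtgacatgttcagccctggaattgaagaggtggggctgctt
Ccng1: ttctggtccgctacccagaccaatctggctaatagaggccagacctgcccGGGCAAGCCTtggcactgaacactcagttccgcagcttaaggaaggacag
Bax: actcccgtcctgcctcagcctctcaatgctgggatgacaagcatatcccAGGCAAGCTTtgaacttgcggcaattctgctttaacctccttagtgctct
Mdm2: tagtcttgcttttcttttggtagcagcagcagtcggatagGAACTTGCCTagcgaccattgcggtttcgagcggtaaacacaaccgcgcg

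The stretch of Cdkn1a lies at chr17:29090866-29090977 on the plus strand and holds 2 exact decamers with a spacer of 12 bases. They run from position -73 to -42 relative to the start of transcription in 1 of the promoter windows of the gene. A further decamer, with 1 mismatch, follows directly. Only 24 of the 32851 windows, 0.0731%, held 2 exact decamers at most 13 bases apart. The stretch of Ccng1 (chr11:40755422-40755521, minus strand) holds an exact decamer directly after 1 with 1 mismatch. In Bax (chr7:45467050-45467148, minus strand) an exact decamer follows 1 with 1 mismatch after a spacer of 1 base. In Mdm2 (chr10:117710895-117710984, minus strand) a single decamer was found. Coordinates are those of GRCm38.p6. The windows of Phlda3, Sesn2, Bbc3 and Gdf15 did not hold these letters, which says nothing of sites elsewhere in the genes. A match is a match of letters and not a bound site. The genes with a match did not share a direction, as Ccng1 and Bax were higher, Mdm2 was lower and Cdkn1a was on either side of 0 after knockdown (values below).

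In siControl Veh, the levels of the 10 genes on the length-corrected scale ran from 114 cRPKM for Bax down to 0.62 cRPKM for Trp53inp1. In that library 94.2% of the genes compared lay below Bax and 11.0% below Trp53inp1. Mdm2 followed Bax with 48.1 cRPKM, then Phlda3 with 31.2, Sesn2 with 18.7, Cdkn1a with 14.9, Gdf15 with 14.6, Ccng1 with 11.6, Zmat3 with 9.17 and Bbc3 with 4.26 cRPKM. The intervals of Cdkn1a (13.8 to 16.1) and Gdf15 (13.8 to 15.4) overlapped, and those of all other neighbours in this order were apart. Counting error was relatively largest for Trp53inp1, which had 73 to 242 reads per library, and next for Bbc3, which had 436 to 501.

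**Figure D1:**
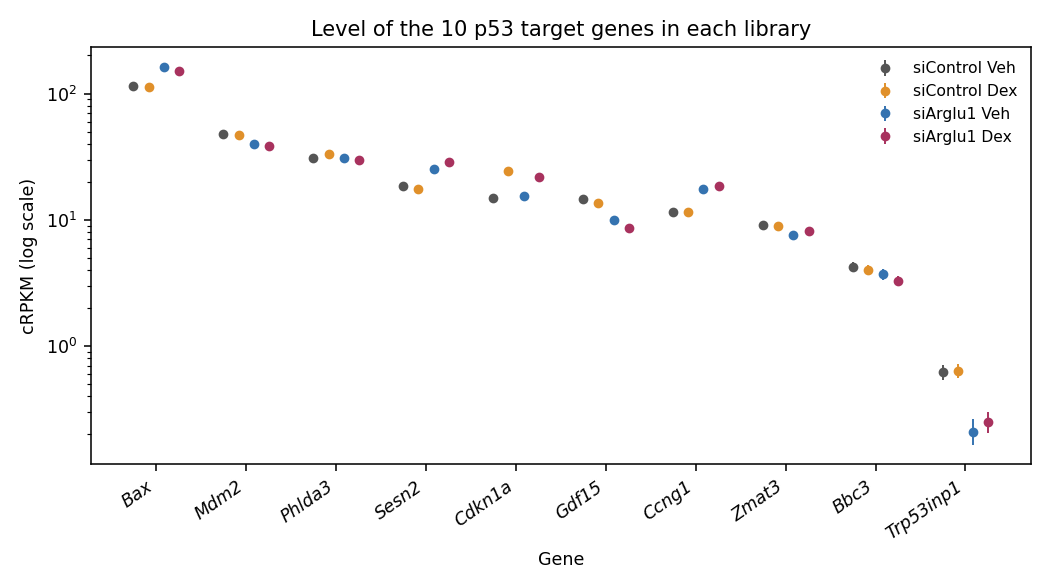
cRPKM (log scale) of the 10 p53 target genes in the 4 libraries, 1 point per library, with exact 95% intervals for counting error that are mostly smaller than the point. Bax, Sesn2 and Ccng1 lie higher and Gdf15 and Trp53inp1 lower in both siArglu1 libraries, and Cdkn1a is higher in both Dex libraries.

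Knockdown of Arglu1 did not move the p53 targets in 1 direction. Ccng1, Bax and Sesn2 were higher and Trp53inp1, Gdf15, Mdm2 and Zmat3 were lower in both siArglu1 libraries, while Cdkn1a, Phlda3 and Bbc3 had a counting interval that held 0 in at least 1 pair. By the size rule, a log2 ratio of at least 0.81 between the reads of 2 libraries after TMM scaling, 1 of the 10 genes (Trp53inp1) was lower in vehicle, where 8.77% of all genes compared passed downward, and 0 were higher, where 7.00% passed. In Dex the same gene was lower, against 5.93% of all genes, and 0 were higher, against 6.19%. The median log2 ratio of the 10 genes was -0.07 in vehicle and -0.16 in Dex, beside 0.00 for all genes compared in both. Counting intervals off 0 in the same direction in both pairs were found for 3 genes upward and 4 downward, and 33.3% and 33.6% of all genes compared did the same, so that these counts are near the background. In pooled cultures, fewer cells that express a gene and less of its RNA per cell cannot be told apart.

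The cell-cycle arm was split. Cdkn1a, the inhibitor of cyclin-dependent kinases through which p53 arrests cells, had 690 reads (siControl Veh) and 720 (siArglu1 Veh) under vehicle, or 14.9 and 15.5 cRPKM, and 1202 and 1312 reads in siControl Dex and siArglu1 Dex, or 24.1 and 21.7 cRPKM. Its log2 ratio for knockdown was 0.08 (-0.07 to 0.24) in vehicle and -0.16 (-0.28 to -0.05) in Dex. With the length trend removed both were negative, at -0.26 and -0.33. Ccng1, the cyclin G that recruits the phosphatase PP2A to Mdm2, stood at 11.6 and 11.5 cRPKM in siControl Veh and siControl Dex against 17.6 and 18.5 cRPKM in siArglu1 Veh and siArglu1 Dex. The siControl and siArglu1 libraries did not overlap. Its log2 ratio was 0.64 (0.57 to 0.71) in vehicle and 0.68 (0.61 to 0.74) in Dex, a level 1.56 and 1.60 times that of siControl, and 11.1% and 8.97% of all genes compared had a higher ratio.

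The apoptosis genes went different ways too. Bax, which permeabilises the outer mitochondrial membrane, was at 114 and 113 cRPKM in siControl Veh and siControl Dex and at 161 and 150 cRPKM in siArglu1 Veh and siArglu1 Dex. The log2 ratio of Bax was 0.53 (0.48 to 0.58) in vehicle and 0.40 (0.35 to 0.44) in Dex. Bax has a short transcript, and with the length trend removed these were 0.20 and 0.24. Bbc3 (Puma), a BH3-only protein that acts upstream of Bax, was at 4.26 and 3.99 cRPKM in siControl Veh and siControl Dex and at 3.71 and 3.27 cRPKM in siArglu1 Veh and siArglu1 Dex. Its log2 ratio was -0.17 (-0.36 to 0.02) in vehicle and -0.29 (-0.48 to -0.11) in Dex, so that only the Dex pair differed beyond counting error. With the length trend removed the Bbc3 ratios were -0.33 and -0.39. Phlda3, which opposes Akt at the membrane, was at 31.2, 33.2, 31.1 and 29.8 cRPKM in siControl (Veh then Dex) and siArglu1 (Veh then Dex). The Phlda3 log2 ratio was 0.03 (-0.04 to 0.11) in vehicle and -0.16 (-0.23 to -0.09) in Dex, and -0.20 and -0.29 with the length trend removed.

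Trp53inp1, a stress protein that takes part in autophagy and promotes p53-dependent death, showed the largest ratio of the 10. It had 216 and 242 reads in siControl Veh and siControl Dex against 73 and 114 in siArglu1 Veh and siArglu1 Dex, or 0.62 and 0.64 against 0.21 and 0.25 cRPKM. The log2 ratio was -1.53 (-1.95 to -1.15) in vehicle and -1.37 (-1.71 to -1.05) in Dex, which left 34.6% and 38.8% of the siControl level. Of all genes compared, 1.63% and 1.62% had a lower ratio. With the length trend removed the Trp53inp1 ratios were -1.26 and -1.23. The values of all 4 libraries are low for this gene, and with a minimum of 100 reads in each library it would not have been compared.

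Of the genes tied to metabolism and secreted signals, Sesn2 and Gdf15 went in opposite directions although both are also targets of Atf4. Sesn2, a leucine sensor that restrains mTORC1, was at 18.7 and 17.5 cRPKM in siControl Veh and siControl Dex and at 25.2 and 28.6 cRPKM in siArglu1 Veh and siArglu1 Dex. Its log2 ratio was 0.46 (0.41 to 0.52) in vehicle and 0.70 (0.65 to 0.76) in Dex. Gdf15, a secreted cytokine of stressed cells, was at 14.6 and 13.7 cRPKM in siControl Veh and siControl Dex and at 10.1 and 8.56 cRPKM in siArglu1 Veh and siArglu1 Dex. The Gdf15 log2 ratio was -0.50 (-0.62 to -0.39) in vehicle and -0.68 (-0.80 to -0.57) in Dex, and with the length trend removed it was -0.71 and -0.80. The siControl and siArglu1 libraries did not overlap for either gene.

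The feedback and RNA-binding members were slightly lower. Mdm2 was at 48.1 and 47.3 cRPKM in siControl Veh and siControl Dex and at 39.9 and 38.6 cRPKM in siArglu1 Veh and siArglu1 Dex, a log2 ratio of -0.24 (-0.28 to -0.19) in vehicle and -0.30 (-0.34 to -0.26) in Dex. Zmat3 (Wig1), a zinc-finger protein that binds RNA, was at 9.17 and 8.86 cRPKM in siControl Veh and siControl Dex and at 7.62 and 8.10 cRPKM in siArglu1 Veh and siArglu1 Dex. The log2 ratio of Zmat3 was -0.23 (-0.30 to -0.17) in vehicle and -0.14 (-0.19 to -0.08) in Dex. Its transcript is long, and with the length trend removed the sign turned, to 0.19 and 0.07.

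**Figure D2:**
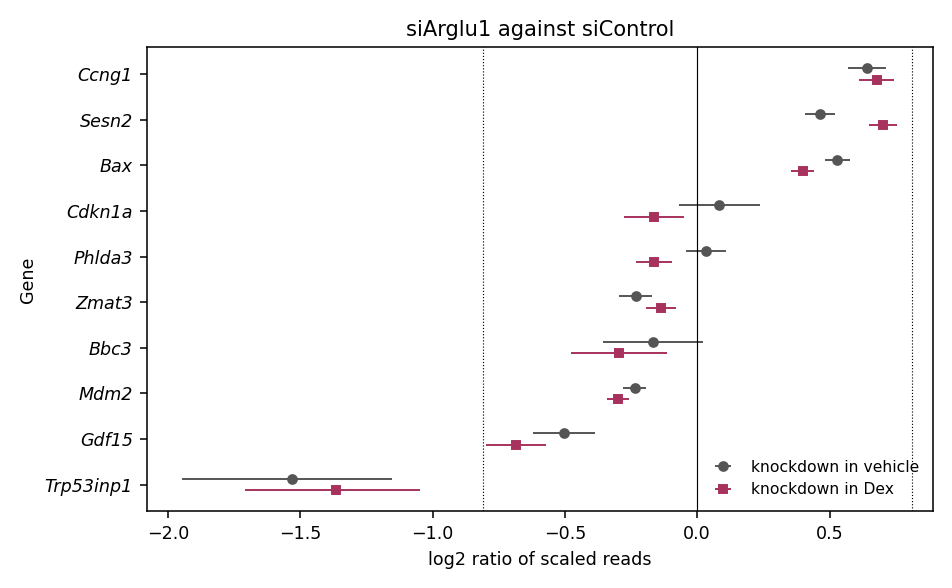
log2 ratio of scaled reads, siArglu1 over siControl, of the 10 genes in vehicle (circles) and in Dex (squares), with exact 95% intervals for counting error; dotted lines stand at 0.81 in both directions. Trp53inp1 alone lies past the line, at -1.53 and -1.37, and Ccng1, Sesn2 and Bax lie to the right of 0 in both pairs.

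A quasi-likelihood fit in edgeR over all 4 libraries, with additive terms for knockdown and Dex and 1 residual degree of freedom, gave the only test that the design allows. At an adjusted p of 0.05 it called 3 of the 10 genes higher after knockdown (Ccng1, Bax and Sesn2) and 3 lower (Trp53inp1, Gdf15 and Mdm2), against 30.8% and 30.9% of all genes compared. Its spread comes from how far the libraries depart from additive effects and not from replicate cultures. The fitted log2 change was 0.66 for Ccng1, 0.58 for Sesn2, 0.46 for Bax, -0.27 for Mdm2, -0.59 for Gdf15 and -1.45 for Trp53inp1.

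Of the 10 genes, Cdkn1a had the largest Dex ratio in both siControl and siArglu1. Its level was 24.1 cRPKM (22.8 to 25.5) in siControl Dex against 14.9 (13.8 to 16.1) in siControl Veh, and 21.7 cRPKM (20.5 to 22.9) in siArglu1 Dex against 15.5 (14.4 to 16.6) in siArglu1 Veh. Both Dex libraries lay above both vehicle libraries. Of the 10 genes, 1 (Cdkn1a) had counting intervals off 0 upward in both Dex pairs and 0 did downward, against 4.57% and 2.75% of all genes compared. The log2 ratio was 0.70 (0.56 to 0.84) in siControl, exceeded by 0.800% of all genes compared, and 0.45 (0.32 to 0.59) in siArglu1, exceeded by 3.40%. It did not reach the threshold of 1 used for Dex, which 0 of the 10 genes passed in either direction. Of all genes compared, 0.320% passed it upward and 0.144% downward in siControl, and 0.328% and 0.0720% in siArglu1. In the additive edgeR quasi-likelihood model, Cdkn1a rose by 0.58 with an adjusted p of 8.80e-06 and was the only 1 of the 10 called for Dex, where 0.992% of all genes compared were called higher. The Dex ratio of Cdkn1a was smaller by 0.25 on the log2 scale in siArglu1 than in siControl (difference -0.25, -0.43 to -0.06). This interval is a normal approximation for counting error, and the difference has no replicate. With the length trend removed the Dex ratios of Cdkn1a were 0.68 and 0.63, and thus lay closer together.

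For the other 9 genes the Dex ratios lay between -0.09 and 0.10 in siControl. In siArglu1 they lay between -0.26 for Gdf15 and 0.23 for Trp53inp1. Sesn2 was 0.09 lower with Dex in siControl (log2 ratio -0.09, -0.15 to -0.03) and higher in siArglu1 (0.15, 0.10 to 0.20). Phlda3 showed the opposite, with 0.10 (0.03 to 0.17) in siControl and -0.10 (-0.17 to -0.02) in siArglu1, and the second value was 0.02 with the length trend removed. Gdf15 had a Dex ratio of -0.08 (-0.19 to 0.02) in siControl and of -0.26 (-0.39 to -0.14) in siArglu1, the latter -0.16 with the length trend removed. The median Dex ratio of the 10 genes was -0.01 in siControl and -0.02 in siArglu1, beside 0.00 for all genes compared in each.

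**Figure D3:**
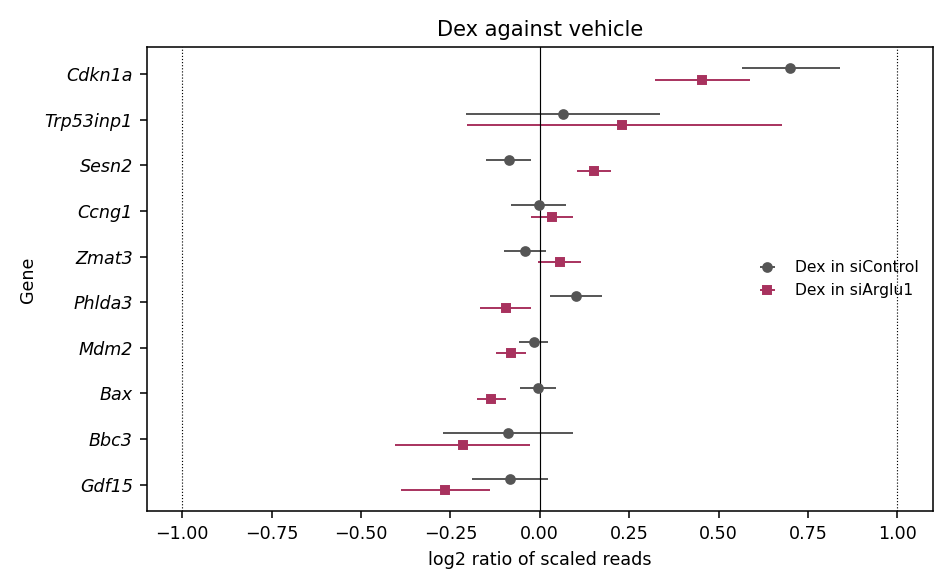
log2 ratio of scaled reads, Dex over vehicle, of the 10 genes in siControl (circles) and siArglu1 (squares), with exact 95% intervals for counting error; dotted lines stand at 1 in both directions. Cdkn1a stands apart at 0.70 and 0.45, and no gene reaches a line.

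More of the genes that act on p53 had a ratio below 0 than above 0 after knockdown, and those it acts on were mixed. Trp53, the gene of p53 itself, was at 82.2 and 84.0 cRPKM in siControl Veh and siControl Dex and at 61.6 and 63.0 cRPKM in siArglu1 Veh and siArglu1 Dex. The Trp53 log2 ratio was -0.38 (-0.43 to -0.34) in vehicle and -0.42 (-0.46 to -0.38) in Dex. Mdm4, which binds p53 and blocks its activation domain, was at 6.37, 5.92, 5.03 and 6.91 cRPKM in siControl (Veh then Dex) and siArglu1 (Veh then Dex). The Mdm4 ratio was -0.31 (-0.42 to -0.19) in vehicle and 0.22 (0.12 to 0.31) in Dex, with no overlap of the intervals.

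Of 27 listed regulators of p53, 25 were compared. In vehicle 5 were lower and 0 higher by at least 0.81, against 8.77% and 7.00% of all genes compared. In Dex 3 were lower and 0 higher, against 5.93% and 6.19%. With the length trend removed, 2 of those lower in vehicle no longer passed. These were Usp7, at -0.82 and then -0.68, and Ep300, at -0.97 and then -0.49, both named after their values were seen. The median log2 ratio of the list was -0.31 in vehicle, with 19 of the 25 below 0, and -0.13 in Dex, with 17 below 0. The median of all genes compared was 0.00 in each pair, and the list median was not computed with the length trend removed. The 2 that were lower in both pairs were Atm, the kinase that activates p53 after double-strand breaks, and Ppp1r13b (Aspp1), which directs p53 to apoptosis genes; 5.07% of all genes compared were lower in both. Atm was at 5.47, 5.12, 1.99 and 2.78 cRPKM in siControl (Veh then Dex) and siArglu1 (Veh then Dex), a ratio of -1.43 in vehicle and -0.89 in Dex. With the length trend removed these were -0.89 and -0.62, and the Dex pair no longer passed. Ppp1r13b was at 14.1, 12.8, 4.55 and 5.17 cRPKM in the same order, with ratios of -1.60 and -1.31.

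Of 45 further p53 targets, 42 were in the table and 35 were compared. In vehicle 4 were higher and 5 lower, against 7.00% and 8.77% of all genes compared. In Dex 3 were higher and 3 lower, against 6.19% and 5.93%. Past the threshold in both pairs were 4.83% of all genes compared upward and 5.07% downward. The median ratio was -0.06 in vehicle and -0.03 in Dex. Rrm2b, the p53-inducible subunit of ribonucleotide reductase, was at 5.83, 5.67, 1.74 and 1.90 cRPKM in siControl (Veh then Dex) and siArglu1 (Veh then Dex), with ratios of -1.71 and -1.59. Pank1, a kinase of coenzyme A synthesis, had ratios of -1.25 in vehicle and -1.46 in Dex. Rps27l, a ribosomal protein paralogue that binds Mdm2, was at 146, 160, 354 and 301 cRPKM in that order, with ratios of 1.31 and 0.90. With the length trend removed they were 0.96 and 0.75, so that the Dex pair no longer passed 0.81. Dcxr, a carbonyl reductase, had ratios of 1.21 and 1.06 at 1.07 to 2.49 cRPKM. The third gene that was higher in both pairs, the death receptor gene Fas, was named after its values were seen and had a mean of 0.213 cRPKM. Rps27l belongs to a family with near-identical copies, so its reads could be split or shared with them.

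Of 12 genes of the integrated stress response, 0 passed 0.81 in either pair. In vehicle 7.00% of all genes compared passed it upward and 8.77% downward, and in Dex 6.19% and 5.93%. Atf4, its central factor, had ratios of 0.52 in vehicle and 0.33 in Dex, or 0.34 and 0.23 with the length trend removed. Ddit3 (Chop), a target of Atf4, had -0.15 and -0.38, or -0.48 and -0.54 with the length trend removed. The median of the list was 0.19 in vehicle, with 9 of the 12 above 0, and 0.16 in Dex, with 8 above 0. The 11 neuroblast markers had medians of 0.64 and 0.54, with 4 higher and 1 lower in each pair. Of all genes compared, 7.00% were higher in vehicle and 6.19% in Dex. The higher markers were Dbh, Mycn, Gata3 and Phox2a in both pairs, with ratios from 1.02 (Phox2a in Dex) to 2.01 (Dbh in Dex). The lower one was Th, with ratios of -1.26 in vehicle and -0.90 in Dex. The part of these markers in the ratios of the p53 targets was not tested. No regulator, further target or stress-response gene reached 1 with Dex in either pair. At an adjusted p of 0.05 the additive edgeR model called 3 of the 35 further targets higher with Dex, 0 of the regulators and 0 of the stress-response genes. It called 0.992% of all genes compared higher. The 3 targets were named after their values were seen. Plk3, a polo-like kinase, had Dex ratios of 0.70 (0.61 to 0.79) in siControl and 0.47 (0.38 to 0.57) in siArglu1, close to those of Cdkn1a. Ddit4 (Redd1), an inhibitor of mTORC1 that glucocorticoids are known to induce, had 0.34 and 0.36, and Zfp365 had 0.33 and 0.28. Trp53inp1 and Ccng1, for which the smaller of the knockdown ratios of both pairs was largest in size, were also set beside all 10701 genes with a mean of at least 1 cRPKM. Over the 4 libraries, the centred log2 profile of Trp53inp1 was nearest to those of Deptor, Grip1 and Gm17296, at Euclidean distances of 0.0899 to 0.114. That of Ccng1 was nearest to Fam171a1, Smug1 and Tpp1, at 0.0285 to 0.0344. The knockdown intervals in vehicle, -1.95 to -1.15 for Trp53inp1 and 0.57 to 0.71 for Ccng1, are wider than these distances. Which genes are nearest is therefore not settled, and shared regulation was not tested.

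**Figure D4:**
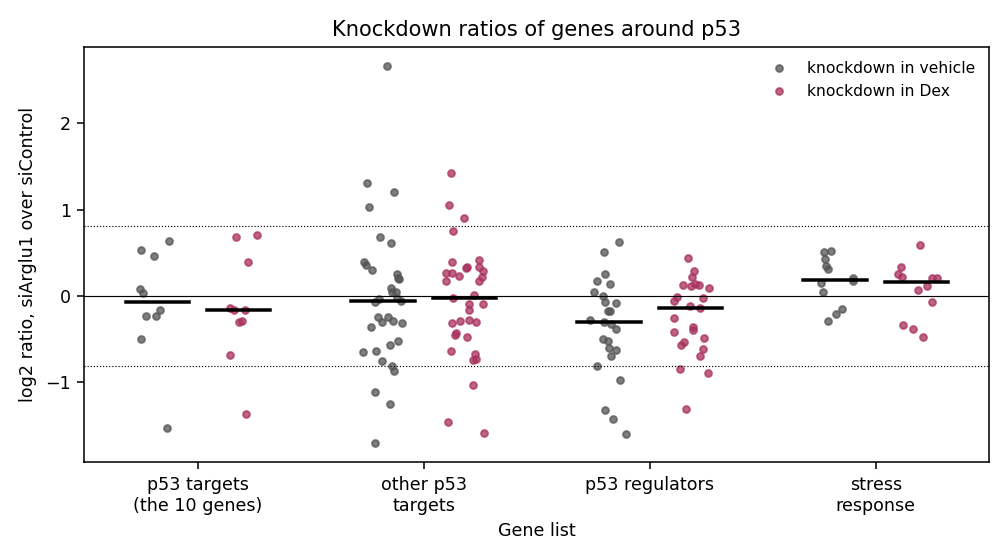
log2 ratio, siArglu1 over siControl, in vehicle (grey) and in Dex (red) for the 10 p53 targets, 35 other p53 targets, 25 regulators of p53 and 12 genes of the integrated stress response, 1 point per gene; bars are medians and dotted lines stand at 0.81 in both directions. The medians lie between -0.31 and 0.19, and all 4 lists hold genes on both sides of 0.

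Splicing was read as PSI, the percent of transcripts that include a segment. The splicing tables list 40 events in 9 of the 10 genes, none of them in Phlda3, and 30 events in 7 genes had a PSI in all libraries and at least 3 coverage scores of LOW or better. A score of LOW stood for 20 to 39 junction reads in the tables that give them and SOK for at least 100. The events of Trp53inp1 and Gdf15 were too thinly covered. At a difference of at least 15 PSI, 0 of the 30 events differed after knockdown in vehicle and 1 did in Dex, in Mdm2, where 1.96% and 1.52% of all 57183 events compared did. With Dex, 0 of the 30 differed in siControl or siArglu1, where 0.717% and 0.948% of all events did. The files give no junction reads for cassette exons, so that no interval can be set on their PSI.

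That event is an 85-nt cassette exon of Mdm2 at chr10:117146756-117146840 (mm9). Its PSI was 91.4 in siControl Veh and 93.7 in siControl Dex against 79.6 in siArglu1 Veh and 72.3 in siArglu1 Dex, each with the score SOK. The difference was -11.8 PSI in vehicle and -21.3 PSI in Dex, and both siArglu1 libraries lay below both siControl libraries. Its length and both flanking introns equal those of exon 3 of 12 of the transcript Mdm2-201 in GENCODE M21, at chr10:117709700-117709784 on the minus strand of GRCm38. That exon holds the start codon of Mdm2-201. Its 81 coding bases (chr10:117709700-117709780, GRCm38) are shown because they are the coding part that leaves the message when the exon is skipped. Capitals mark the start codon.

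Mdm2 exon 3, coding part: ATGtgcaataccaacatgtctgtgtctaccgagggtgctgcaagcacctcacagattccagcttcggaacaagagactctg

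The annotated transcript Mdm2-202 lacks the exon, and its reading frame starts 147 coding bases further on, at codon 50 of Mdm2-201, in the same frame. The coding sequence is 1320 bases long in Mdm2-202 and 1467 in Mdm2-201. The N-terminal part of Mdm2 carries the pocket that binds p53. Reads over the junctions from this exon to the next come from separate data on 5′ splice sites. They include reads from another 5′ splice site 46 nt further on. The PSI of that site was 2.56, 2.83, 2.94 and 0.0 in siControl (Veh then Dex) and siArglu1 (Veh then Dex). Reads of both sites together numbered 161, 182, 70 and 131 in that order. Per 1000 reads on Mdm2 these were 16.9 (14.4 to 19.6), 18.0 (15.5 to 20.8), 8.77 (6.85 to 11.1) and 13.1 (10.9 to 15.5), with exact binomial intervals. The junction stood at 52.0% (38.7 to 69.3) of siControl in vehicle and 72.5% (57.5 to 91.3) in Dex, so the larger fall was in vehicle here and in Dex by PSI. The junction and the PSI draw on some of the same reads. Reads at another event of Mdm2, a 5′ splice site that differs by 3 nt, numbered 417, 416, 255 and 346 in that order. All reads on Mdm2 numbered 9549, 10108, 7979 and 10032. Relative to these, the reads at that other event were also fewer in both siArglu1 libraries. How much of the fall at the junction is specific to the exon that Mdm2-202 lacks was not tested. The 97-nt exon 8 of Mdm2 was at 95.5, 94.1, 92.2 and 93.9 PSI in the same order of libraries.

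The other 29 events of the p53 targets differed by less. The largest difference after knockdown was 6.67 PSI, in a 289-nt exon of Bbc3 with a PSI of 90.2, 94.7, 84.0 and 88.0 in siControl (Veh then Dex) and siArglu1 (Veh then Dex) and a score of VLOW in siArglu1 Veh. In Zmat3, a 5′ splice site that adds 4 nt had a PSI of 4.44, 3.27, 7.56 and 7.64 in the same order, from 119 to 157 junction reads. In Ccng1 the events differed by at most 3.00 PSI, in Sesn2 by 1.52, in Bax by 0.660 and in Cdkn1a by 0.250.

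Mdm4 showed a larger difference than any member. A 56-nt exon at chr1:134905714-134905769 (mm9) had a PSI of 69.1 and 66.3 in siControl Veh and siControl Dex against 88.2 and 88.6 in siArglu1 Veh and siArglu1 Dex, or 19.2 and 22.3 PSI more. All 4 values carry the imbalance code B2 of the tables, which says that reads over its junctions were unequal. It has the length of exon 6 of Mdm4-202 and the same distance to the next exon, but its flanking introns in the splicing table do not equal those of that transcript, so the match is less firm than that of the Mdm2 exon. The next exon, 68 nt long, is the one whose skipping gives the known short form of Mdm4. It was named after its values were seen, and its PSI was 6.17, 2.70, 6.98 and 1.56 in siControl (Veh then Dex) and siArglu1 (Veh then Dex), so that the junctions read mostly skipped it in all 4 libraries. A 3′ splice site of Mdm4 that differs by 3 nt had a PSI of 48.5, 48.5, 30.7 and 60.0 in that order from 25 to 57 junction reads, which is -17.8 PSI after knockdown in vehicle and 11.5 in Dex. The only event of Trp53 compared, a 412-nt segment, stayed between 0.96 and 2.19 PSI. Over the 27 regulators, 3 of 181 events differed by at least 15 PSI after knockdown in vehicle and 2 in Dex. Of all 57183 events compared, 1.96% and 1.52% did, so that the counts of the regulators are not above the background. Of 162 events of the further p53 targets, 3 were higher and 2 lower in vehicle, and 2 higher and 2 lower in Dex. These few events are a larger share than among all events, which was not tested.

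**Figure D5:**
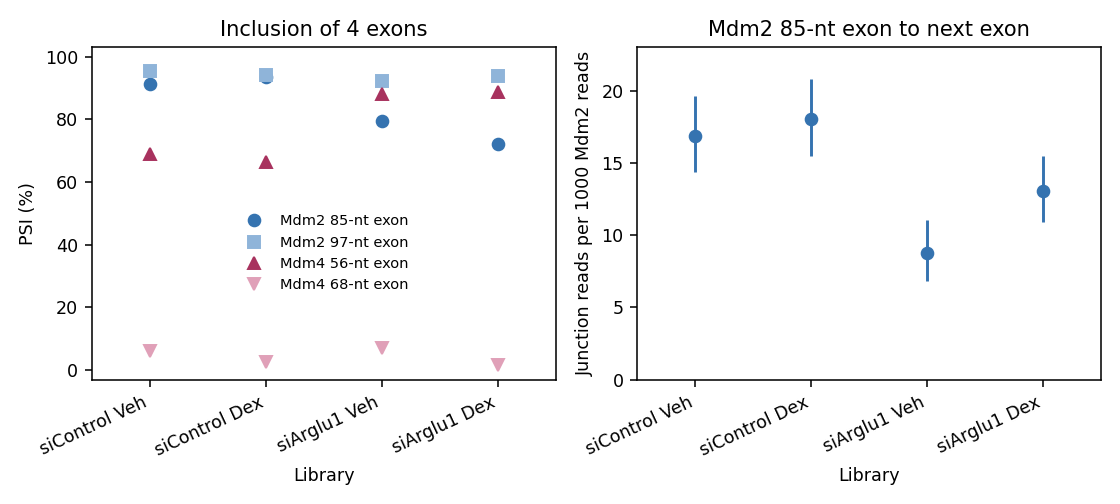
Left, PSI in percent of 2 exons of Mdm2 and 2 exons of Mdm4 in the 4 libraries, 1 point per library, without intervals because the tables give no junction reads for these exons. Right, reads over the junctions from the 85-nt Mdm2 exon to the next exon, both 5′ splice sites together, per 1000 Mdm2 reads. Intervals are exact 95% binomial intervals. Both siArglu1 libraries (8.77 and 13.1) lie below both siControl libraries (16.9 and 18.0). Reads at another 5′ splice site event of Mdm2, not shown, were also fewer relative to Mdm2 reads in both siArglu1 libraries.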

How the data were processed

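RNA-seq was made by the authors from N2a cells with siControl or siArglu1, given vehicle or Dex, as polyA-selected TruSeq V2 libraries from pooled cultures, 1 per group. Per the labels, the processing notes name Bowtie and mm9, with no version. The authors deposited a read count per gene, not normalized, and their cRPKM, an RPKM corrected for mappability, in 1 table of 22667 genes. A blank was taken as 0 reads. The authors' ratio columns (Dex over vehicle) were not used. The authors deposited PSI as a percent for cassette exons and alternative splice sites, with a coverage score in words and, for alternative sites, counts of junction reads.

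Counts were scaled by TMM in edgeR 4.0.16 (R 4.3.3), and log2 CPM took a prior count of 1. Intervals of ratios are exact at the 95% level and condition on the reads of both libraries. The interval of the difference between the Dex ratios of Cdkn1a is a normal approximation. A gene passed at a log2 ratio of 0.81 for knockdown or 1 for Dex, and an event at 15 PSI. No pair of libraries was tested. An additive quasi-likelihood model (edgeR, Benjamini-Hochberg) was the alternative, beside DESeq2 1.42.0 size factors, deposited cRPKM, other minimums and thresholds, and trends on length or GC removed by lowess. Alternative sites of 1 exon counted as 1 event. Length was known for 99.9% and GC for 98.6% of genes. The scripts were tested on simulated data.

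The members and the gene lists were chosen with earlier results of these data known. Named by rule besides the 10 members were Trp53, Mdm4, the list genes with a mean of at least 1 cRPKM past the threshold in the same direction in both knockdown pairs, every event of a member, Mdm4 or Trp53 past 15 PSI, and the event of each member with the largest difference. Atf4, Ddit3 and the cell type markers were named outside this rule, as was anything said to be named after its values were seen. Of the list genes, Ptprv, Trp53cor1 and Pvt1 were not analysed here. Another list gene that the rule names is not reported here. Promoter sequences are from RefSeq (GRCm38.p6), and the exon sequence is from GENCODE M21 (GRCm38). The files' own coordinates are mm9, and none was converted.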

Additional observations from a re-analysis of the deposited data

Results flagged for a closer look

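The contrasts below had opposite signs in 2 backgrounds that share no library, and none of these differences was tested, since each rests on 1 library per group. The Dex ratio of Sesn2 was -0.09 in siControl and 0.15 in siArglu1, a difference of 0.24 on the log2 scale, and with the length trend removed the ratios were -0.08 and 0.11. The Dex ratio of Phlda3 was 0.10 in siControl and -0.10 in siArglu1, a difference of -0.20, and with the length trend removed the signs were no longer opposite, at 0.09 and 0.02. Opposite signs with both counting intervals off 0 were found for 11.0% of all genes compared between the Dex pairs. The knockdown ratio of Mdm4 was -0.31 in vehicle and 0.22 in Dex, a difference of 0.52, and -0.22 and 0.25 with the length trend removed. Between the knockdown pairs, 2.92% of all genes compared had opposite signs in this way. The 3-nt alternative 3′ splice site of Mdm4 changed by -17.8 PSI after knockdown in vehicle and by 11.5 PSI in Dex, a difference of 29.3 PSI, on 25 to 57 junction reads per library. Groups of 1 library leave no spread in which a library could stand apart.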

How the results depend on the processing

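Total reads, DESeq2 size factors, deposited cRPKM, a prior count of 5, and removal of the length or GC trend left all 8 counts of members past the thresholds as they were. Dropping the minimum on reads could not change them, because all 10 members had passed it and the scaling was kept. Of 104 alternative counts, which include those without the minimum, 19 moved by over 1.5 times. With at least 100 reads in each library, Trp53inp1 was not compared and the counts of lower members were 0 in vehicle and 0 in Dex. At a threshold of 0.5, knockdown gave 2 higher and 2 lower in vehicle and 2 higher and 2 lower in Dex, and Dex gave 1 higher in siControl. At 1.5, 0 were lower after knockdown in Dex. The additive model, which has 1 knockdown term and 1 Dex term, gave 3 higher and 3 lower for knockdown in either pair and 1 higher for Dex in either pair. For splicing, without a coverage minimum 2 events passed for knockdown in vehicle, 1 for Dex in siControl and 1 for Dex in siArglu1. At 10 PSI, 1 passed for knockdown in vehicle, and at 25 PSI 0 for knockdown in Dex. Of 240 alternative values of the members' ratios, 219 stayed within the counting interval, and 15 of the 21 outside came from removal of the length trend. It gave another sign to 4 ratios whose counting interval was off 0, those of Zmat3 in both knockdown pairs and of Bax and Phlda3 for Dex in siArglu1. With 1 library per group, no library could be left out. No paired analysis was possible because each group has a single library, so that no replicate number is shared by 2 or more pairs.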
